A study of Homo sapiens with 6 samples.

Results

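Levels of 9 genes of zinc buffering were compared between HT1080 cells edited in GPR56 and unedited cells, in a study that asked which mRNAs change when this receptor is disrupted. The genes were chosen by symbol from 58735 genes of the deposited table. They were 7 metallothioneins of the long arm of chromosome 16 (MT2A, MT1X, MT1E, MT1F, MT1G, MT1M and MT1A), their zinc-sensing regulator MTF1 and the zinc exporter SLC30A1. HT1080 is an established human fibrosarcoma line. The 3 GPR56 KO libraries came from HT1080 cells edited with CRISPR-Cas9 in the gene of GPR56, an adhesion G protein-coupled receptor with the approved symbol ADGRG1, and the 3 WT libraries came from unedited HT1080 cells. Both genotypes were grown in the same serum-containing medium, and the sample descriptions name the solvent DMSO for both, with no dose or time. The labels give neither the number of KO clones nor whether the libraries of a genotype were separate cultures. P-values therefore measure the spread between these libraries, which may be technical, and genotype cannot be told apart from any other difference between the edited and unedited cells. In bulk RNA, fewer cells that express a gene and less RNA per cell cannot be told apart.

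Metallothioneins are small, cysteine-rich proteins that hold zinc and copper in clusters, buffer the free metal in the cell and bind toxic metals such as cadmium. When zinc rises, MTF1 binds it through zinc fingers, enters the nucleus and attaches to metal response elements, short motifs that stand in several copies before metallothionein genes. SLC30A1, also called ZnT1, carries zinc out across the plasma membrane, and its mouse counterpart is a known target of the same factor. Human metallothionein genes also respond to glucocorticoids.

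Levels were deposited as FPKM, which scales reads to gene length and to library depth. Multiplied back by gene length, they gave 16955111 to 17276269 whole reads per KO library and 16410352 to 16461752 per WT library. ADGRG1 was lower in the KO, at 2.68, 2.54 and 2.58 FPKM in KO libraries, against 6.61, 6.07 and 6.87 FPKM in WT libraries (log2 fold change −1.06, SE 0.07, limma adjusted p = 6.24e-05), so its mRNA was reduced and still detected. Of 10 mesenchymal markers 8 were expressed, with a summed level of 1751 to 1839 FPKM in KO and 1419 to 1455 FPKM in WT. Of these markers COL1A2 was at 0 FPKM in every KO library and at most 0.0215 FPKM in WT, and THY1 was at most 0.0712 FPKM in KO and 0.0101 FPKM in WT. None of 7 epithelial, 5 blood cell and 5 endothelial markers passed the expression filter. Their summed levels were 0.901 to 1.005 FPKM in KO and 0.345 to 0.410 FPKM in WT for epithelium, 0.127 to 0.534 FPKM in KO and 0 to 0.0729 FPKM in WT for blood cells, and 1.39 to 1.64 FPKM in KO and 0.515 to 0.618 FPKM in WT for endothelium. CDH1, KRT14 and PTPRC had 0 reads throughout. PECAM1 had 1.43, 1.08 and 1.18 FPKM in KO libraries, against 0.289, 0.356 and 0.333 FPKM in WT libraries. It missed the filter through its low WT level. CLDN4 had 217 reads over the KO libraries and 78 over the WT libraries, and CDH5 had 51 and 0. KDR (11 and 28) and CLDN5 (13 and 25) went the other way. The part of these markers in the results was not tested. Over 12000 tested genes, those with a mean of at least 1 FPKM, 43.4% differed between genotypes at an adjusted p under 0.05, 22.4% lower and 21.0% higher in KO. Every count below is to be read against these shares. At an unadjusted limma p under 0.05, 6214 of the 12000 genes differed. The share of tested genes whose KO and WT libraries do not overlap is not given here. Lack of overlap alone therefore does not set a gene apart.

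MT2A and MT1E, which carried nearly all metallothionein reads, were both lower in KO cells, and MT1E fell the more. MT2A, the metallothionein most widely expressed in human tissues, had 414.3, 346.6 and 367.5 FPKM in KO libraries, against 496.4, 535.7 and 577.7 FPKM in WT libraries. All KO libraries were below all WT libraries. The mean was 376.2 ± 34.7 FPKM in KO and 536.6 ± 40.7 FPKM in WT (SD, n = 3 each), which is 29.9% lower in KO. The log2 fold change, taken on log2(FPKM + 1), was −0.51 (SE 0.09, limma adjusted p = 0.00458). These levels rest on 7744 to 9234 reads per KO library and 10909 to 12482 per WT library.

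MT1E, a metal-inducible isoform of the MT1 group, had 19.17, 15.97 and 16.26 FPKM in KO libraries, against 52.6, 53.7 and 60.2 FPKM in WT libraries. The groups lay far apart, with the highest KO library below the lowest WT library by more than the whole range of either. The mean was 17.1 ± 1.8 FPKM in KO and 55.5 ± 4.1 FPKM in WT (SD, n = 3 each), 3.24-fold lower in KO (log2 fold change −1.64, SE 0.09, limma adjusted p = 3.3e-05). Only 0.4% of the 12000 tested genes had a log2 fold change as low or lower. For MT2A that share was 9.5%.

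The difference between KO and WT libraries was thus larger for MT1E than for MT2A. The ratio of MT2A to MT1E FPKM was 21.6, 21.7 and 22.6 in KO libraries, against 9.44, 9.98 and 9.59 in WT libraries. The 2 ranges did not overlap, and the mean log2 ratio was 1.18 higher in KO (exact permutation test, two-sided, p = 0.1, which is the minimum for 3 libraries against 3). MT1E made up 4.304 ± 0.111% of the summed metallothionein FPKM in KO and 9.315 ± 0.232% in WT (SD, n = 3 each). MT2A made up 94.54 ± 0.34% in KO and 90.03 ± 0.34% in WT. With reads divided by the length of the main annotated transcript instead, MT1E had 3.89 ± 0.10% in KO and 8.44 ± 0.21% in WT. The deposited length of MT2A, 1299 bases, spans its locus with introns, whereas its main transcript has 786 bases. Levels between genes depend on this choice, while KO to WT ratios of FPKM do not. Differences on log2(FPKM + 1) depend on it at low levels, where adding 1 counts for more. All metallothionein genes and pseudogenes together summed to 397.8 ± 35.2 FPKM in KO and 596 ± 45.1 FPKM in WT (SD, n = 3 each).

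**Figure D1:**
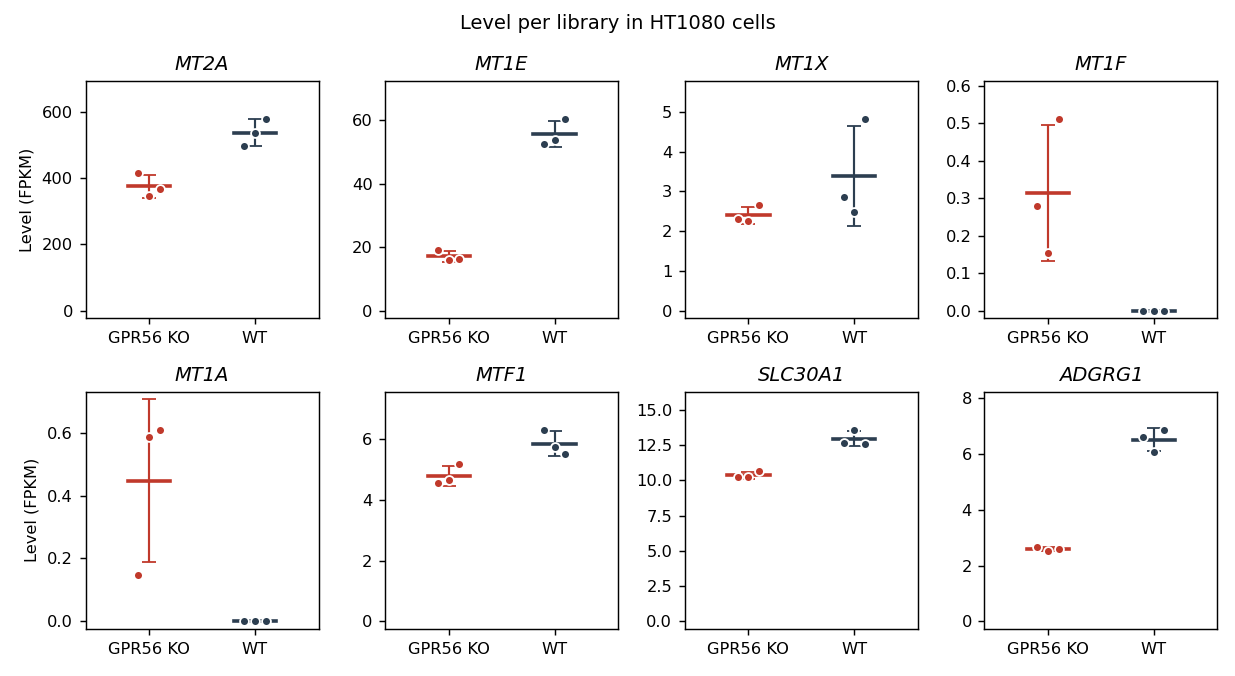
Level in FPKM of 7 members and of the targeted gene ADGRG1, with GPR56 KO libraries on the left and WT libraries on the right. Points are libraries, the thick line is the mean and the bar 1 SD (n = 3); MT2A, MT1E, MTF1, SLC30A1 and ADGRG1 are lower in all KO libraries, MT1X overlaps, and MT1F and MT1A are at 0 in WT.

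The remaining metallothioneins were low or silent. MT1X, another metal-inducible isoform, had 2.30, 2.26 and 2.65 FPKM in KO libraries, against 2.87, 2.47 and 4.82 FPKM in WT libraries. The groups overlapped, and the WT mean was set by replicate 3. The log2 fold change was −0.33 (SE 0.18, limma adjusted p = 0.188), and −0.11 without WT replicate 3. Its difference from WT was thus within the spread between libraries.

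MT1F and MT1A were seen in KO libraries and in no WT library. MT1F had 9, 5 and 16 reads in KO libraries, against 0 reads in each WT library. Its level was 0.278, 0.154 and 0.510 FPKM in KO. Set against a limit of 3 reads over the 3 WT libraries together (0.0316 FPKM), the observed KO mean was 9.92-fold that limit. MT1A had 1, 4 and 4 reads in KO libraries and 0 in each WT library. Its observed KO mean was 2.97-fold the same limit of reads (0.151 FPKM). Both were under the expression filter. Tested without that filter they did not pass, with limma adjusted p of 0.0511 for MT1F and 0.0573 for MT1A. For scale, MT1E had 919 reads over the KO libraries and 2930 over the WT libraries. Such limits cover counting error in WT only. The KO means were taken as observed, from 30 reads of MT1F and 9 of MT1A, so these folds are not lower bounds.

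MT1G and MT1M, isoforms known from liver and kidney among other tissues, had 0 reads in all 6 libraries. Over a genotype this allows up to 0.0785 FPKM of MT1G in KO and 0.0797 FPKM in WT, and up to 0.0625 FPKM of MT1M in KO and 0.0634 FPKM in WT. MT1H, the neuronal isoform MT3 and MT4, known from stratified epithelium, also had 0 reads. Of 11 protein-coding metallothionein genes on chromosome 16, 5 were at 0 throughout.

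Metallothionein mRNAs resemble each other closely, which bears on how reads were assigned. The coding sequences of the 4 members below are shown because they make the resemblance visible; capitals mark bases unlike MT2A, and each has 186 bases, including the stop codon (GENCODE release 29, GRCh38).
MT2A: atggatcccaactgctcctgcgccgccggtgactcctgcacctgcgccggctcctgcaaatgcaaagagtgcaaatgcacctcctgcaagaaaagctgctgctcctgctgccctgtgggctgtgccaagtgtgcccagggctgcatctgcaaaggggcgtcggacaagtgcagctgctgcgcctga
MT1E: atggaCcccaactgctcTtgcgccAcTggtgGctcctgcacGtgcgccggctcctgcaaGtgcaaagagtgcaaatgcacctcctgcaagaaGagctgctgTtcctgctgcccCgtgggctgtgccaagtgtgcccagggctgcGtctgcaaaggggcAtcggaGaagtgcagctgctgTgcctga
MT1X: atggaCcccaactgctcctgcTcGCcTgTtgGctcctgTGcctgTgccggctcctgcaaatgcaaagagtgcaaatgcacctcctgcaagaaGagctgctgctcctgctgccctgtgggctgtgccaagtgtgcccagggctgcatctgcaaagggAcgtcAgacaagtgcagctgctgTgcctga
MT1F: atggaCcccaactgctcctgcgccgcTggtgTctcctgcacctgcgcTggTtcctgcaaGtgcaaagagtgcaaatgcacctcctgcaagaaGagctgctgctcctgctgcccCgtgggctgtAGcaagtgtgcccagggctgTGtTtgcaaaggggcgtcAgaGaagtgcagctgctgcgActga

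MT1E and MT1X each differ from MT2A at 14 of these bases (92.5% identity) and MT1F at 16 (91.4%). The repeated tgc and tgt codons are those of the cysteines that bind metal. Over the whole main transcript, 4.9% of the stretches of 50 bases in MT2A also occur in a transcript of another gene, and the share is 5.3% in MT1E, 3.6% in MT1F, 5.8% in MT1A and 45.1% in MT1X. Neither read length nor the treatment of reads that match several genes is known here, so the MT1X level is the least certain of these. Part of its shared stretches lie in AC026461.1, a gene on the same strand that covers 18.1% of the exonic bases of MT1X and was listed at 0 FPKM. The exons of the other 8 members overlap no other annotated gene.

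The promoters of 4 members were in the RefSeq table (GRCh38.p14), each running from 250 bases before the transcript start to 50 after it. MT2A, MT1X and SLC30A1 are shown because they hold the core of the element to which MTF1 binds, spelled TGCACNC or TGCGCNC and searched on both strands; capitals mark each match. They lie at chr16:56608334-56608633 (plus strand), chr16:56682220-56682519 (plus strand) and chr1:211579112-211579411 (minus strand), and are written 5′ to 3′ along the gene.
MT2A: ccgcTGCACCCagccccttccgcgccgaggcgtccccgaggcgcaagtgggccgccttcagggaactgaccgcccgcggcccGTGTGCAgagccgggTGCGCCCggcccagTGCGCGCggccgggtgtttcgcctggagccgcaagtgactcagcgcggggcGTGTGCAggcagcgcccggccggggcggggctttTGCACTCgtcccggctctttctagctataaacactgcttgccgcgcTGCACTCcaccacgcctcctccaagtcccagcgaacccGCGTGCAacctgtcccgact
MT1X: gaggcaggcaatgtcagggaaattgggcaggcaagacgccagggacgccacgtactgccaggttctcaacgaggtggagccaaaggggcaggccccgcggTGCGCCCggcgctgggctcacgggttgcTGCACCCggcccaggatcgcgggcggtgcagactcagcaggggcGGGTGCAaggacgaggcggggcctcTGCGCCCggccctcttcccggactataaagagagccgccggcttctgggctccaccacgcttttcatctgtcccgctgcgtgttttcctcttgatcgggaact
SLC30A1: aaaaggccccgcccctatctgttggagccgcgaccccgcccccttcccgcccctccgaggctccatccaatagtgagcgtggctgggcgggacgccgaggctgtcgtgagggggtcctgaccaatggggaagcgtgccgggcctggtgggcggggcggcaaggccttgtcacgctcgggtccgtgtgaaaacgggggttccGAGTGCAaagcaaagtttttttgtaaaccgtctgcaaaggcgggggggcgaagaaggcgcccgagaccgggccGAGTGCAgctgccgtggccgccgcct

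The MT2A promoter held 8 matches, 5 along the gene and 3 on the other strand, and none of them overlapped another. Of 35116 RefSeq promoters of this length, 0.02% held 8 or more. MT1X held 4 matches, a number reached by 0.601% of promoters, and SLC30A1 held 2, reached by 8.6%. The MTF1 promoter held 0. The core of the antioxidant response element, spelled TGACNNNGC, occurred 1 time each in MT2A, MT1X and SLC30A1 and in 13.347% of all promoters. A TATAAA box stood in MT2A and MT1X and in 11.53% of all promoters. These matches are a description of the sequence. MT1E, MT1F, MT1G, MT1M and MT1A are not in the table.

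The regulator and the exporter were lower in KO by about the same small ratio. MTF1 had 4.56, 4.64 and 5.17 FPKM in KO libraries, against 6.30, 5.73 and 5.49 FPKM in WT libraries, without overlap. The mean was 4.79 ± 0.33 FPKM in KO and 5.84 ± 0.41 FPKM in WT (SD, n = 3 each). The log2 fold change was −0.24 (SE 0.07, limma adjusted p = 0.0353), a KO to WT ratio of 0.820. This call did not hold without the expression filter (adjusted p = 0.0775), under quantile normalization (0.063) or with a term for replicate number (0.104). It was also lost without KO replicate 1 (0.106), KO replicate 2 (0.112), WT replicate 1 (0.129) or WT replicate 2 (0.0611).

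SLC30A1 had 10.2, 10.2 and 10.7 FPKM in KO libraries, against 12.7, 13.6 and 12.6 FPKM in WT libraries, again without overlap. The mean was 10.4 ± 0.3 FPKM in KO and 13.0 ± 0.5 FPKM in WT (SD, n = 3 each; log2 fold change −0.30, SE 0.06, limma adjusted p = 0.00591), a ratio of 0.800. A GC trend ran with genotype in these libraries. Across genes, which are not independent replicates, each library's departure from the average of a gene followed GC content with a Spearman rho of 0.46, 0.44 and 0.23 in KO libraries, against −0.40, −0.62 and −0.01 in WT libraries. The SLC30A1 transcript has 38.0% GC, against a median of 48.3% over tested genes. With the GC and length trends removed, its difference was 0.01 (adjusted p = 0.925), and the part of this trend in the deposited values was not tested further. MT2A has 53.9% GC and MT1E 53.5%, and after the same step their log2 fold changes were −0.65 (adjusted p = 0.00101) and −1.77 (adjusted p = 9.94e-06).

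**Figure D2:**
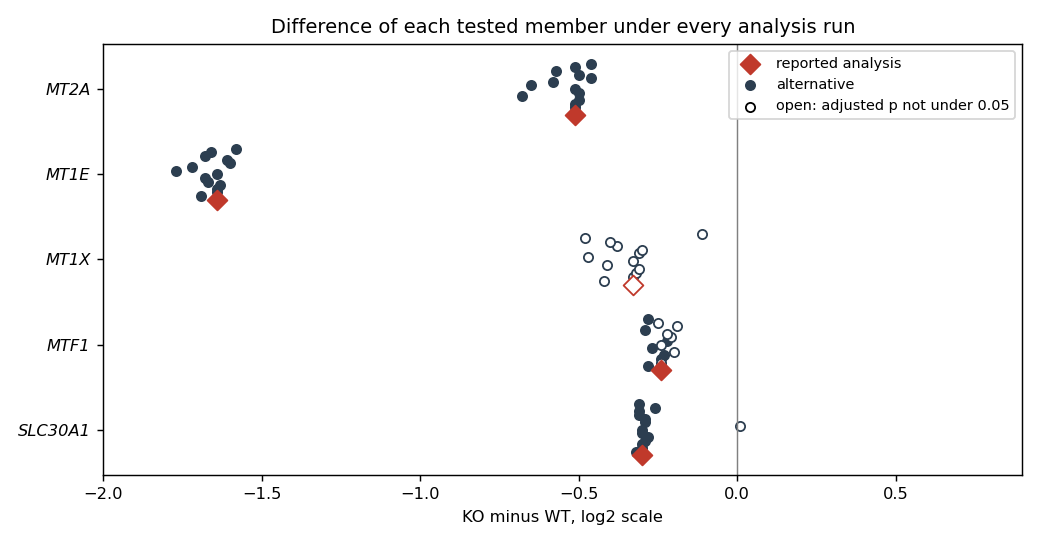
KO minus WT difference on the log2 scale for the 5 tested members, as reported (diamonds) and under each alternative (circles); open symbols have an adjusted p of 0.05 or more. MT1E lies between −1.77 and −1.58 and MT2A between −0.68 and −0.46 throughout, while SLC30A1 reaches 0.01 with the GC and length trends removed.

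Of the 9 members, 5 were tested, and each of these was above 1 FPKM in all 6 libraries. In KO 4 of them were lower, 0 were higher, and MT1X did not pass. The share of all tested genes called lower was 22.4%. By FPKM over the deposited lengths, MT2A led in both genotypes, followed by MT1E, SLC30A1, MTF1 and MT1X, and neighbours in this order did not overlap in either genotype. The place of MT1X depends on its length, which is 1773 bases as deposited and 450 bases for its main transcript. Divided by main transcript length, a check added after the values were seen, MT1X had 8.91 to 10.4 FPKM in KO and 9.75 to 19 FPKM in WT. It then overlapped SLC30A1, at 10.2 to 10.7 FPKM in KO and 12.6 to 13.6 FPKM in WT, and lay above MTF1. MT1A and MT1F came last among detected members in KO and overlapped each other over the deposited lengths.

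The metallothionein cluster lies near the targeted gene. On GRCh38 it extends from position 56565049 (MT4) to 56684196 (MT1X) of chromosome 16, with MT2A (ENSG00000125148) at 56608199 to 56609497 and MT1E (ENSG00000169715) at 56625475 to 56627112, both on the plus strand. ADGRG1 (ENSG00000205336, plus strand) begins at 57610652, which is 1001 kb past the end of MT2A. In a window reaching 0.5 Mb beyond the cluster on one side and 0.5 Mb beyond ADGRG1 on the other, 25 further genes were tested. In KO 13 of them were lower (52%), 1 was higher and 11 did not pass, with a median log2 fold change of −0.28. On the rest of chromosome 16, 153 of 510 tested genes were lower (30%), 74 were higher, and the median was −0.07. The median of all tested genes was −0.01. No test was made of the window against other regions, and neighbouring genes share their position on the chromosome.

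MT1E and HERPUD1 had the lowest log2 fold changes of the tested genes in that window on log2(FPKM + 1), and their order changed with the setting (−1.69 for MT1E and −1.71 for HERPUD1 with a pseudocount of 0.1). HERPUD1, an endoplasmic reticulum protein of the unfolded protein response whose gene lies between the cluster and ADGRG1, had 9.57 ± 0.57 FPKM in KO and 31.5 ± 3.3 FPKM in WT (SD, n = 3 each; log2 fold change −1.62, limma adjusted p = 3.3e-05). ADGRG1 ranked next on that scale. AC012181.2, singled out after its values were seen, is a low-level transcript annotated within HERPUD1 on the same strand, so reads of the 2 genes may not be told apart. It had 7, 13 and 0 reads in KO libraries, against 20, 22 and 14 in WT libraries. Its log2 fold change was −0.86 (limma adjusted p = 0.044) and −2.03 with a pseudocount of 0.1, where it did not pass (adjusted p = 0.106). That call was also lost without the expression filter (0.138) and with the GC and length trends removed (0.0517). Leaving out KO replicate 1 (0.0813) or 3 (0.0581) lost it as well. So did leaving out WT replicate 1 (0.112), 2 (0.111) or 3 (0.0542), while it held without KO replicate 2 (0.0172). NUDT21, a subunit of the cleavage factor for mRNA 3′ ends, had 24.3 ± 0.3 FPKM in KO and 41.1 ± 4.7 FPKM in WT, a log2 fold change of −0.73, and −0.40 with the GC and length trends removed (limma adjusted p = 0.000944). After that step 19 of the 25 window genes were lower, 1 was higher, and the median was −0.33. RSPRY1 had 4.81 ± 0.40 FPKM in KO and 7.24 ± 0.65 FPKM in WT, and POLR2C, a subunit of RNA polymerase II, had 25.1 ± 1.1 and 31.4 ± 0.4 FPKM in the same order. NLRC5, an activator of MHC class I genes, CPNE2, CFAP20 and CSNK2A2, a catalytic subunit of casein kinase 2, had log2 fold changes of −0.44 to −0.28.

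Genes next to the cluster and before ADGRG1 gave a mixed picture. BBS2, the nearest tested gene before the cluster, had a log2 fold change of −0.14 (limma adjusted p = 0.194), and NUP93, a nuclear pore component and the nearest after it, −0.36 (adjusted p = 0.00861). CCDC102A, the nearest before ADGRG1, was at −0.02 (adjusted p = 0.908). With the GC and length trends removed CCDC102A was called lower (log2 fold change −0.27, limma adjusted p = 0.0454). After that step BBS2 was at 0.04 (adjusted p = 0.677) and NUP93 at −0.33 (adjusted p = 0.00779). DOK4, singled out after its values were seen, was the gene that rose, with 1.597 ± 0.315 FPKM in KO and 0.87 ± 0.13 FPKM in WT (adjusted p = 0.0164). That call was lost without the expression filter (adjusted p = 0.0584), without WT replicate 1 (adjusted p = 0.0592) and with a term for replicate number (adjusted p = 0.0537).

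**Figure D3:**
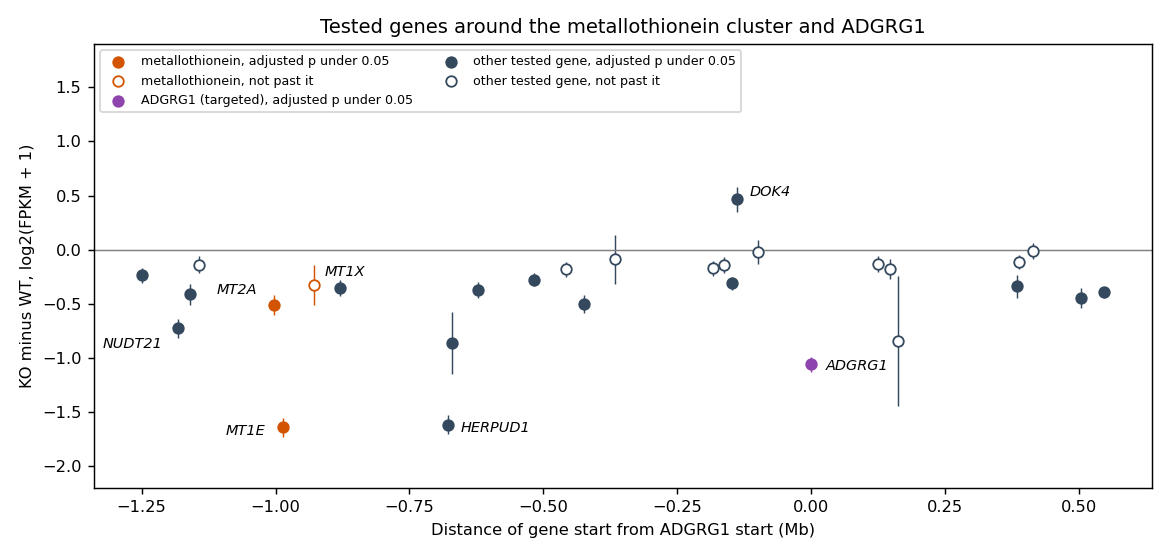
KO minus WT difference on log2(FPKM + 1) for each tested gene around the metallothionein cluster and ADGRG1, against the distance of its start from the ADGRG1 start in Mb. Bars are 1 SE and filled points have an adjusted p under 0.05; MT1E and HERPUD1 lie lowest, at −1.64 and −1.62, and most other genes lie below 0.

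Other zinc exporters were lower as well in the values as deposited. Of 10 SLC30A genes 6 were tested, of which 4 were lower, 0 were higher and 2 did not pass (median −0.28, against −0.01 over all tested genes). Besides SLC30A1 these were SLC30A7, which loads zinc into the Golgi apparatus, with 4.71 ± 0.41 FPKM in KO and 7.31 ± 1.10 FPKM in WT (limma adjusted p = 0.00649), SLC30A5, a Golgi transporter as well, with 9.40 ± 0.70 and 11.5 ± 0.2 FPKM in the same order (adjusted p = 0.0149), and SLC30A3, known from synaptic vesicles, with 1.05 ± 0.08 and 1.94 ± 0.50 FPKM (adjusted p = 0.0197). With the GC and length trends removed 1 of the 6 was lower, SLC30A3 at −0.64 (adjusted p = 0.00315), 1 was higher, SLC30A9 at 0.30 (adjusted p = 0.00779), and the median was −0.02. Without WT replicate 1, 2 of the 6 were lower, and SLC30A3 (limma adjusted p = 0.0603) and SLC30A5 (0.0548) lost their calls. The SLC30A3 call was also lost without the expression filter (0.0694) and without KO replicate 3 (0.0566). That of SLC30A5 was also lost without KO replicate 2 (0.0537).

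Zinc importers mostly did not pass. Of 14 SLC39A genes 10 were tested, with 1 higher, 1 lower and a median of 0.02. SLC39A8, a zinc and manganese importer of the plasma membrane, was lower, with 7.31 ± 0.75 FPKM in KO and 10.1 ± 0.7 FPKM in WT (limma adjusted p = 0.00694). SLC39A4, the importer known from the gut, was higher, with 1.93 ± 0.18 FPKM in KO and 1.06 ± 0.26 FPKM in WT (adjusted p = 0.0112). SLC39A10, which is repressed by MTF1 in mouse cells, was at 12.9 ± 0.8 FPKM in KO and 12.5 ± 1.4 FPKM in WT and did not pass (adjusted p = 0.666), but was called higher with the GC and length trends removed (log2 fold change 0.38, adjusted p = 0.00171). After that step 3 importers were higher and 2 lower.

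Copper genes gave 1 call among 10 tested, with a median of 0.06. ATP7B, a copper-exporting ATPase, was higher, with 2.46 ± 0.09 FPKM in KO and 0.99 ± 0.10 FPKM in WT (log2 fold change 0.80, limma adjusted p = 0.000426; 0.74 and adjusted p = 0.000295 with the GC and length trends removed). Its paralog ATP7A was at 1.11 ± 0.16 FPKM in KO and 1.06 ± 0.20 FPKM in WT (adjusted p = 0.821). With the GC and length trends removed ATP7A was called higher as well (log2 fold change 0.33, limma adjusted p = 0.0248). The copper importer SLC31A1 and the copper-zinc dismutase SOD1 did not pass in the values as deposited. After the same step SOD1 was called lower (log2 fold change −0.14, limma adjusted p = 0.0314), and SLC31A1 did not pass (adjusted p = 0.513). With the GC and length trends removed 3 of the 10 were higher and 1 lower.

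Glucocorticoid-responsive genes moved in both directions. Of 9 tested, the receptor included, 4 were called higher and 3 lower in KO (median 0.25, and −0.07 with the filter at a mean of 5 FPKM). NR3C1, the receptor itself, had 10.8 ± 0.6 FPKM in KO and 12.8 ± 0.8 FPKM in WT (limma adjusted p = 0.0372), a call lost with the GC and length trends removed (log2 fold change 0.06, adjusted p = 0.272). The NR3C1 call was also lost without the expression filter (0.0691) and with a term for replicate number (0.115). Without KO replicate 1 (0.102), KO replicate 2 (0.131), WT replicate 1 (0.117) or WT replicate 2 (0.0909) it did not hold either. FKBP5, a chaperone partner that restrains the receptor, was lower, with 3.78 ± 0.24 FPKM in KO and 5.47 ± 0.11 FPKM in WT (adjusted p = 0.00191). ERRFI1, a feedback inhibitor of EGF receptors, was higher, with 160.9 ± 7.4 FPKM in KO and 59.3 ± 5.4 FPKM in WT. The circadian gene PER1 had 3.85 ± 0.22 FPKM in KO and 1.62 ± 0.03 FPKM in WT, and the transcription factor KLF9 had 5.37 ± 0.32 and 2.68 ± 0.20 FPKM in the same order. CEBPD, a transcription factor of the acute phase, was also higher, with 10.4 ± 1.0 FPKM in KO and 7.13 ± 0.18 FPKM in WT (adjusted p = 0.00281), and lost its call with the GC and length trends removed (log2 fold change 0.20, adjusted p = 0.152). DUSP1, a phosphatase that acts on MAP kinases, was lower, with 5.72 ± 0.66 FPKM in KO and 8.05 ± 0.53 FPKM in WT (adjusted p = 0.00737). After the GC and length step 3 of the 9 were higher and 2 lower.

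**Figure D4:**
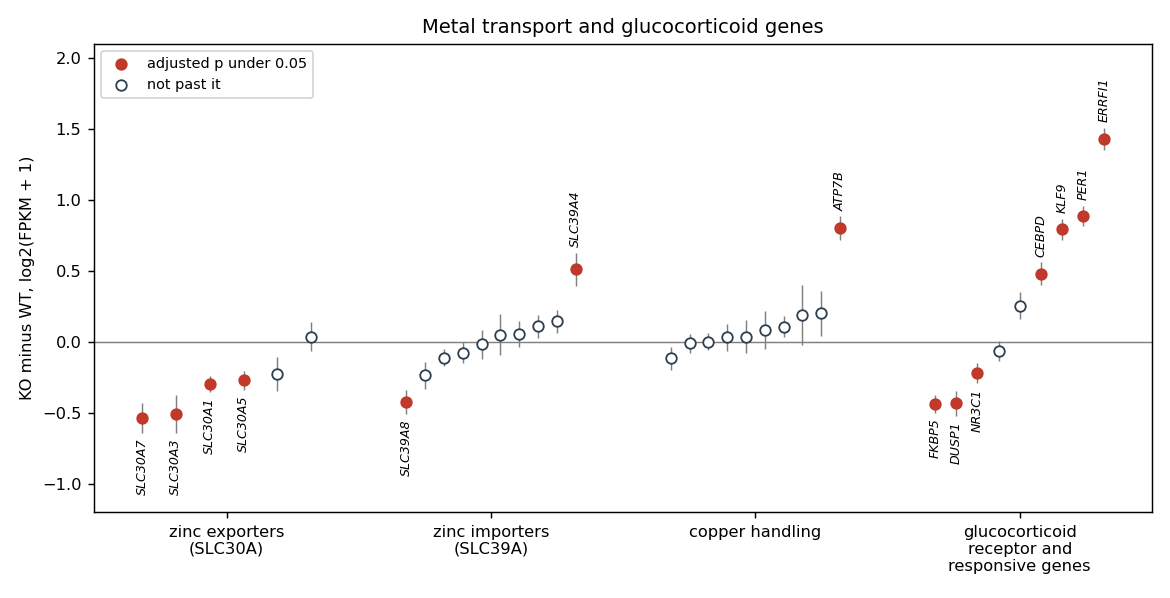
KO minus WT difference on log2(FPKM + 1) for each tested gene of 4 lists, with 1 SE; filled points have an adjusted p under 0.05. Zinc exporters lie at or below 0 apart from SLC30A9 at 0.03, zinc importers and copper genes did not pass apart from SLC39A4 at 0.51, SLC39A8 at −0.42 and ATP7B at 0.80, and glucocorticoid-responsive genes fall on both sides.

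The genes most like MT2A over the 6 libraries were found by the root mean square distance between log2(FPKM + 1) profiles, each centred on its own mean. They were UPF3B (distance 0.032), CFAP45 (0.051), CCDC58 (0.055), ARMCX3 (0.057) and CAMK4 (0.062), which lie on chromosomes X, 1, 3, X and 5. Their KO to WT ratios of mean FPKM were 0.553 (CAMK4) to 0.693 (CCDC58), against 0.701 for MT2A. Adding 1 shrinks differences at low levels, so the likeness holds on that scale only. UPF3B, a factor of nonsense-mediated mRNA decay, had 3.71, 2.92 and 3.01 FPKM in KO libraries, against 4.72, 5.19 and 5.35 FPKM in WT libraries. None of the 5 lies on chromosome 16, where 510 of the 12000 tested genes lie outside the window above. That chromosome holds a small share of tested genes, so this says nothing about location.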

How the data were processed

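RNA of 3 GPR56 KO and 3 WT samples was purified with a Qiagen column and made into libraries with a SMARTER mRNA-Seq kit, per the labels' protocols. The authors deposited 1 table of FPKM values for 58735 genes, with gene length and position, per the file headers. No source used here names the aligner, the counting tool or the strand setting. Builds named by the submitters' processing notes are GRCm38 and mm10, whereas identifier, start and end equalled human GENCODE release 29 on GRCh38 for 58735 of 58735 genes. Reads were recovered as FPKM times gene length in units of 1 read, and 100.0% of values above 0 lay within 0.02 of a whole read. For a 1 kb gene, 1 read equalled 0.0581 to 0.0602 FPKM. No 2 libraries of a genotype were alike within counting error (chi-square over its degrees of freedom was 4.92 to 16.5), so each counts once.

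The test was limma 3.58.1 in R 4.3.3 (lmFit, eBayes with trend), run on log2(FPKM + 1) values of the 12000 genes that averaged 1 FPKM or more, with genotype as the only term, two-sided, with Benjamini-Hochberg adjustment over all tested genes. The script was tested on simulated data. Alternatives were a pseudocount of 0.1, no filter, a filter at 5 FPKM, median-ratio scaling, quantile normalization, limma-voom with TMM factors on recovered reads, a replicate block, removal of each library's GC and length trends (loess; GC of the longest transcript) and leaving out each library.

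The members and lists were chosen with earlier results of these data known. Named genes were the members and ADGRG1, other metallothionein genes with a read, up to 6 called genes per metal or glucocorticoid list, up to 8 genes with the smallest adjusted p in the window besides the nearest neighbours, and the 5 nearest profiles to MT2A. SLC39A10, SLC30A9, NR3C1, ATP7A, SLC31A1, SOD1, DOK4 and AC012181.2 were named beside these after their values were seen. So were the markers PECAM1, CLDN4, CDH5, KDR and CLDN5. SCO2 has 2 entries in the table, both under the filter. Of the genes that the naming rule covers, 1 is not reported here.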

Additional observations from a re-analysis of the deposited data

How the results depend on the processing

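MT2A and MT1E kept their direction and their call under each of the 14 alternatives run, MT2A between −0.68 and −0.46 and MT1E between −1.77 and −1.58 on the log2 scale. MT1X did not pass under any alternative that tested it. MTF1 lost its call with no filter (−0.24), under quantile normalization (−0.20) and with the replicate block (−0.24), and ranged from −0.29 to −0.19 when 1 library was left out. SLC30A1 changed sign with the GC and length trends removed (0.01). Over all tested genes 1639 were higher and 1564 lower with the filter at a mean of 5 FPKM, where fewer genes are tested, against 2525 and 2682 as reported. Of the list genes other than SLC30A1, 6 were higher and 7 lower as reported; 2 were higher with that filter and 10 with the GC and length trends removed, for which the cause was not tested, and 4 to 7 were lower when 1 library was left out, the lowest without WT replicate 1. Replicate numbers did not pair the libraries: the correlation of same-numbered deviations from the group means was −0.07, −0.18 and −0.35, and the block changed no call of a member other than MTF1 (1900 genes higher and 1966 lower in all). ADGRG1 and MT1X could not be tested with the filter at 5 FPKM. Depth limits MT1F, MT1A, MT1G and MT1M, whose levels rest on 30 reads or fewer over a genotype.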

Other observations

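Processed metallothionein pseudogenes on other chromosomes and MT1B gave few reads. MT1XP1, on chromosome 1, had 0, 6 and 2 reads in KO libraries, against 0 in each WT library. MT2P1, on chromosome 4, had 2 reads over the KO libraries and 3 over the WT libraries, and MT1P1, on chromosome 9, had 2 and 2. MT1B, a protein-coding gene of the chromosome 16 cluster, had 1 read in KO and 0 in WT. Of 21 metallothionein genes and pseudogenes in the table, 12 had no read in any library.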
